A study of Mus musculus with 12 samples.

Results

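The miRNAs described here are both arms of 3 mouse hairpins, miR-28a, miR-151 and miR-708, each of which lies in an intron of a different protein-coding gene. They make up 6 of the 1908 mature miRNAs in a count table of hippocampal small RNA: mmu-miR-28a-5p, mmu-miR-28a-3p, mmu-miR-151-5p, mmu-miR-151-3p, mmu-miR-708-5p and mmu-miR-708-3p. The 6 names were chosen by hairpin and arm, at a time when the genotype comparison of these libraries, the miR-28a arm ratio included, had already been seen, so their levels, fold changes and arm ratios are given as descriptions. The libraries come from hippocampi of 6 Gld2 knockout mice (GLD2KO; GLD2-/-) and 6 wild type mice (WT), all male, on a C57BL/6 background and 3 months old. Littermates from matings of Gld2 heterozygotes supplied both genotypes, 1 library a mouse, and the knockout is not described as limited to a cell type. Gld2 is a cytoplasmic poly(A) polymerase that adds adenosines to RNA 3′ ends, and the study asked about its part in untemplated additions to miRNAs. Counts per miRNA show relative abundance only. Gld2 mRNA and added nucleotides were not analysed here.

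A miRNA hairpin is cut from its primary transcript by Drosha and then by Dicer, which leaves a duplex of a 5p and a 3p arm. One arm is loaded into an Argonaute protein and pairs with target mRNAs through its seed, while the other is usually degraded. An intronic hairpin can be made from the pre-mRNA of its host gene, whose level was not analysed here. The miR-28a host Lpp encodes a LIM domain protein of focal adhesions, the miR-151 host Ptk2 encodes focal adhesion kinase, and the miR-708 host Tenm4 encodes a teneurin, a transmembrane protein of neuronal wiring and myelination. The primary transcript of miR-151 is a known substrate of A-to-I editing in the brain, and mouse miR-708 is induced under endoplasmic reticulum stress.

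RefSeq sequences (GRCm38.p6) were matched for 4 of the 6 members, the arms of miR-28a and miR-708. They are shown because the miR-28a and miR-708 arms share a seed on the 5p side; capitals mark the seed, bases 2 to 8 from the 5′ end, and all 4 lie on the plus strand.
mmu-miR-28a-5p, chr16:24827868-24827889: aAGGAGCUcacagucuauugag
mmu-miR-708-5p, chr7:96249450-96249472: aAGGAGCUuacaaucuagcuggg
mmu-miR-28a-3p, chr16:24827908-24827929: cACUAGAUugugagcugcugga
mmu-miR-708-3p, chr7:96249496-96249517: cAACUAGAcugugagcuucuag
Both 5p arms had the seed AGGAGCU, and aligned without gaps they were identical at 16 of 22 bases. No other mature miRNA among the 1679 in the RefSeq table had this seed. The 3p arms were identical at 17 of 21 aligned bases once shifted by 1 base, and because of that shift their seeds, ACUAGAU and AACUAGA, differed. Each 5p arm began with A and each 3p arm with C. The 3′ ends, where Gld2 acts, were G for both 5p arms and for miR-708-3p, and A for miR-28a-3p.

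In the GENCODE annotation of GRCm38, Mir28a (chromosome 16, 24827855 to 24827940, plus strand) lay in intron 8 of 12 of Lpp, 17150 bases before the next exon. Mir151 (chromosome 15, 73254815 to 73254882, minus strand) lay in intron 22 of 31 of Ptk2, which is 14556 bases long, 2151 bases after the preceding exon. Mir708 (chromosome 7, 96249424 to 96249532, plus strand) lay in intron 1 of 32 of Tenm4, a span of 143365 bases. Introns were numbered on the longest principal protein-coding transcript. The 3 hairpins therefore share no host transcript, and the introns that hold them range widely in length.

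Libraries held 2197915 to 3761106 counts, and the members 10 to 4953 counts per library. Levels are given as counts per 1000000 counts (CPM), scaled with edgeR's TMM factors. Neuronal marker miRNAs summed to 148478 to 273716 CPM in GLD2KO and 108763 to 361209 CPM in WT (5 of 5 markers in the table, none at 0 throughout), while the liver miRNA miR-122-5p stayed between 1.47 and 17.0 CPM and 3 muscle miRNAs summed to at most 232 CPM. Oligodendrocyte markers summed to 9309 to 30583 CPM in GLD2KO and 8810 to 40409 CPM in WT (3 of 3), endothelial ones to 2647 to 9529 and 2503 to 8508 CPM (2 of 2), microglial and leukocyte ones to 147 to 344 and 213 to 549 CPM (3 of 4), and blood ones to 1148 to 24223 and 652 to 22943 CPM (2 of 3). Choroid plexus and cilia markers summed to 1227 to 21160 CPM in GLD2KO and 1565 to 5290 CPM in WT (5 of 5). The part of these cell types in the results below was not tested, and in bulk tissue fewer cells of a type and less RNA per cell cannot be told apart.

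Across the 12 libraries miR-708-5p was the most abundant member, followed by miR-151-5p, and both arms of miR-28a were the rarest. The means were 799 ± 564 CPM for miR-708-5p, 385 ± 227 CPM for miR-151-5p, 179 ± 78.4 CPM for miR-708-3p, 156 ± 71.8 CPM for miR-151-3p, 38.1 ± 26.4 CPM for miR-28a-5p and 27.1 ± 16.6 CPM for miR-28a-3p (SD, n = 12). Among 521 miRNAs with enough counts to test, these were ranks 92, 135, 184, 197, 305 and 336 by mean level. Most neighbours in this order did not differ beyond their spread. The level of miR-708-5p lay above miR-151-5p in 9 of 12 libraries, miR-151-5p above miR-708-3p in 9, miR-708-3p above miR-151-3p in 8, and miR-28a-5p above miR-28a-3p in 5. The exception was the step from miR-151-3p down to miR-28a-5p, which held in 12 of 12 libraries. Different miRNAs ligate with different efficiency, so an order between miRNAs is less sure than 1 miRNA compared between libraries.

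Summed over both arms, the miR-708 hairpin made up 59.3 ± 16.2% of the family's level in GLD2KO and 60.6 ± 13.8% in WT, miR-151 36.6 ± 16.1% and 35.1 ± 12.7%, and miR-28a 4.08 ± 0.805% and 4.26 ± 2.52% (SD, n = 6 each). All 6 members together took 0.193 ± 0.0817% of counts in GLD2KO and 0.132 ± 0.0495% in WT. The summed level was lowest at 995 CPM, 1675 CPM in the median and highest at 3560 CPM in GLD2KO, against 924, 1223.9 and 1764 CPM in WT. The highest value belonged to GLD2KO replicate 1. GLD2KO replicate 3, at 2021 CPM, also lay above every WT library, and the remaining GLD2KO libraries lay within the WT range.

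**Figure D1:**
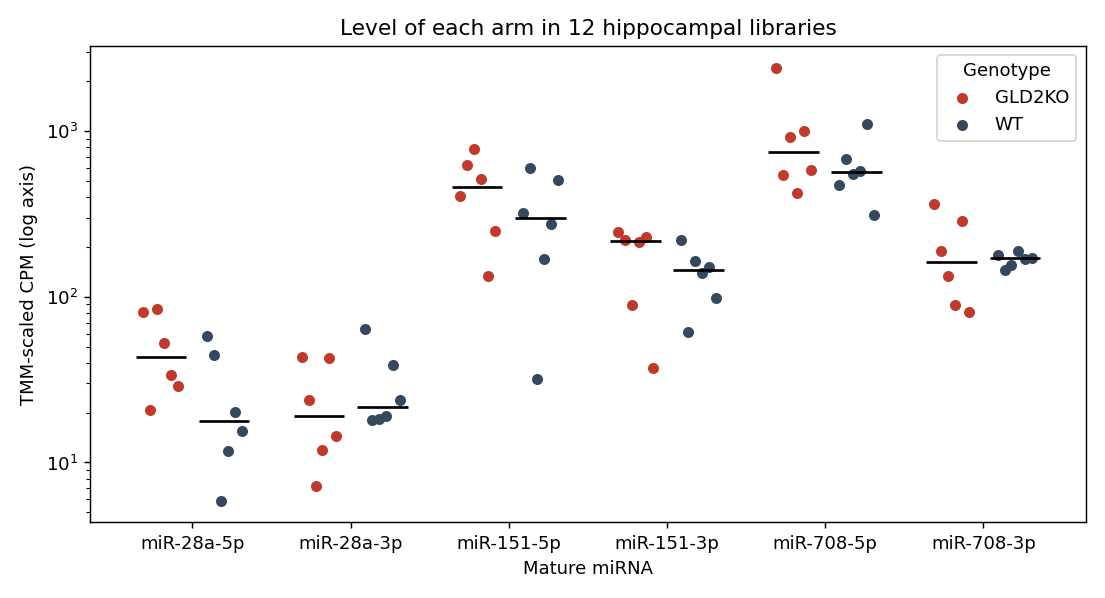
TMM-scaled CPM (log axis) of each arm in the 6 GLD2KO and the 6 WT libraries; points are libraries and bars are medians. GLD2KO and WT overlap for each of the 6 arms, and miR-708-5p in 1 GLD2KO library reaches 2421 CPM.

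No member passed the test of a genotype difference. Of the 6 members 5 had a mean estimate higher and 1 lower in GLD2KO, and edgeR's quasi-likelihood test called 0 of 6 at an adjusted p of 0.05. It called 0 of all 521 tested miRNAs (0%), with 25 at an unadjusted p under 0.05. The groups of 6 libraries separated without overlap for 0 of 6 members, against 3 of 521 tested miRNAs (0.576%). The members' median log2 fold change, GLD2KO minus WT, was 0.41, against 0.12 over all tested miRNAs, of which 306 were higher and 215 lower. Another 187 tested miRNAs lay in introns of protein-coding genes on the same strand, and of these 110 were higher and 77 lower, with a median of 0.16 and 0 past the test. All 6 members passed the low-count filter, so no member was left out.

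The 5p arms, which carry the shared seed in miR-28a and miR-708, had the larger estimates. The level of miR-28a-5p was lowest at 20.8 CPM, 43.2 CPM in the median and highest at 85.0 CPM in GLD2KO, against 5.89, 17.7 and 58.4 CPM in WT. Here 2 GLD2KO libraries lay above every WT library and 4 WT libraries lay below every GLD2KO library, and the rest overlapped. Its means were 50.3 ± 27.3 CPM in GLD2KO and 25.98 ± 20.7 CPM in WT (SD, n = 6 each), a log2 fold change of 0.95 (SE 0.53, 95% confidence interval -0.16 to 2.07). The lowest library, WT replicate 3, rested on 10 counts, or 4.43 per 1000000 counts with a 95% Wilson interval of 2.41 to 8.16; the highest, GLD2KO replicate 3, on 319 counts, or 115 with an interval of 103.5 to 128.9. These intervals cover counting error only, and libraries of 1 genotype differed by more than that.

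The arm of the miR-708 hairpin with more counts was miR-708-5p. Its level was lowest at 424 CPM, 753 CPM in the median and highest at 2421 CPM in GLD2KO. In WT the lowest, median and highest levels were 313, 564 and 1107 CPM. GLD2KO replicate 1 stood above all other libraries, WT replicate 6 lay below every GLD2KO library, and the rest overlapped. The means were 982 ± 740 CPM in GLD2KO and 617 ± 270 CPM in WT, a log2 fold change of 0.67 (SE 0.45, interval -0.28 to 1.62), and without GLD2KO replicate 1 it was 0.19. For miR-151-5p the lowest, median and highest levels were 133, 461 and 783 CPM in GLD2KO, against 31.8, 299 and 596 CPM in WT. The highest and the lowest library were again GLD2KO replicate 3 and WT replicate 3, a span of 24.6-fold. Its means were 453 ± 241 CPM in GLD2KO and 318 ± 210 CPM in WT, a log2 fold change of 0.51 (SE 0.55, interval -0.64 to 1.66), which was 0.25 without GLD2KO replicate 3 and 0.33 without WT replicate 3.

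The 3p arms had estimates nearer to 0. For miR-28a-3p the lowest, median and highest levels were 7.20, 19.2 and 43.5 CPM in GLD2KO, against 18.1, 21.6 and 63.7 CPM in WT. Its lowest library was GLD2KO replicate 3, the one in which miR-28a-5p was highest. The log2 fold change of miR-28a-3p was -0.35 (SE 0.49, interval -1.38 to 0.69), and its sign turned without WT replicate 1, the highest library. For miR-151-3p the levels were 37.1, 217.96 and 247 CPM in GLD2KO, against 61.8, 145 and 221 CPM in WT, with a log2 fold change of 0.31 (SE 0.46, interval -0.64 to 1.27). It was 0.17 without GLD2KO replicate 1 and 0.15 without WT replicate 2.

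Among the members miR-708-3p showed the narrowest spread within WT, at 144, 171 and 188 CPM (lowest, median, highest), whereas its GLD2KO libraries lay at 80.7, 162 and 364 CPM. Here 3 GLD2KO libraries lay above every WT library and 3 lay below every WT library. The coefficient of variation was 59.7% in GLD2KO and 9.38% in WT; whether the genotypes differ in spread was not tested. The log2 fold change was 0.18 (SE 0.40, interval -0.66 to 1.03), and it turned to -0.10 without GLD2KO replicate 1. Within genotypes the SD of log2 CPM, pooled over both, was 0.63 for miR-708-3p and 1.27 for miR-151-5p, which placed them at the 29.0 and 89.4 percentiles of the 521 tested miRNAs.

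**Figure D2:**
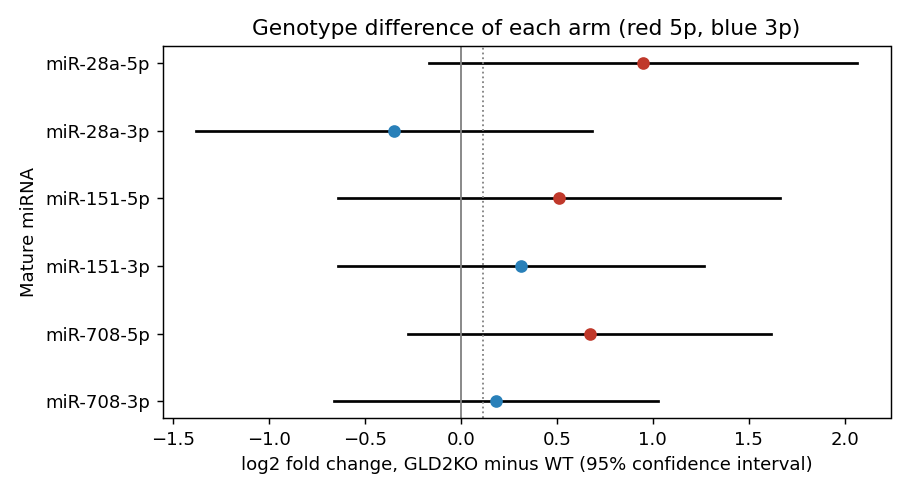
Log2 fold change of each arm, GLD2KO minus WT, with the 95% confidence interval from edgeR (n = 6 each); red marks 5p and blue 3p arms, and the dotted line is the median of all 521 tested miRNAs, 0.12. The 5p arms lie between 0.51 and 0.95, the 3p arms between -0.35 and 0.31, and each interval includes 0.

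The ratio of 5p to 3p counts is free of library scaling and can be compared between libraries. The arms of a hairpin may ligate with different efficiency. The ratio therefore shows which arm had more counts, not which arm prevailed in the tissue. For miR-708 the 5p arm exceeded the 3p arm in 12 of 12 libraries and took 82.7 ± 5.78% of the hairpin's counts in GLD2KO and 76.6 ± 7.77% in WT (SD, n = 6 each). For miR-151 it took 70.1 ± 19.3% and 61.6 ± 26.3%, and for miR-28a 66.0 ± 18.9% and 42.4 ± 15.99%. In miR-28a the 5p arm exceeded the 3p arm in 4 of 6 GLD2KO libraries and in 1 of 6 WT libraries. In miR-151 it did so in 5 of 6 GLD2KO and 5 of 6 WT libraries, the exceptions being GLD2KO replicate 5 and WT replicate 3.

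The miR-28a log2 ratio of 5p to 3p counts ran from -0.33 through a median of 0.94 to 3.54 in GLD2KO, and from -1.58 through -0.67 to 1.29 in WT. Its highest value was in GLD2KO replicate 3, with 319 counts of 5p and 27 of 3p, and its lowest in WT replicate 3, with 10 and 31 counts. The means were 1.17 ± 1.47 in GLD2KO and -0.45 ± 0.98 in WT, a difference of 1.62 (95% confidence interval 0.16 to 3.09, limma), and 0 of 167 hairpins (0%) passed an adjusted p of 0.05. Over the other 164 hairpins the median log2 arm ratio of a library was also lowest in WT replicate 3, at -0.39, and highest in GLD2KO replicate 3, at 0.64, and averaged 0.35 ± 0.16 in GLD2KO and 0.04 ± 0.31 in WT. Taken relative to that median, a step added after the values were seen, the miR-28a difference was 1.305, with means of 0.81 ± 1.38 in GLD2KO and -0.49 ± 0.84 in WT. Without GLD2KO replicate 3 the unadjusted difference was 1.15, and without WT replicate 3 it was 1.39. Across all 167 hairpins the median of each hairpin's own genotype difference was 0.06. The gap between the genotype averages of the library medians is therefore not the shift of a typical hairpin.

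For miR-151 the log2 arm ratio ranged from -0.78 to 3.13 in GLD2KO and from -2.35 to 3.27 in WT, a span of 5.62 on the log2 scale, and it lay below 0 in 1 library of each genotype. The mean difference of 0.60 (interval -1.19 to 2.39) was 0.28 relative to the library medians and -0.04 without WT replicate 3. For miR-708 the ratio ranged from 1.51 to 2.85 in GLD2KO and from 0.86 to 2.71 in WT, with a difference of 0.55 (interval -0.55 to 1.64), or 0.23 relative to the library medians. Ranked by their SD within genotypes among the 167 hairpins, miR-708 stood at the 4.79 percentile, miR-28a at 53.3 and miR-151 at 87.4. The mean log2 arm ratio over all libraries was 2.05 for miR-708, 1.13 for miR-151 and 0.36 for miR-28a. Among the 167 hairpins these means stood at the 64.7, 58.1 and 50.9 percentiles.

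**Figure D3:**
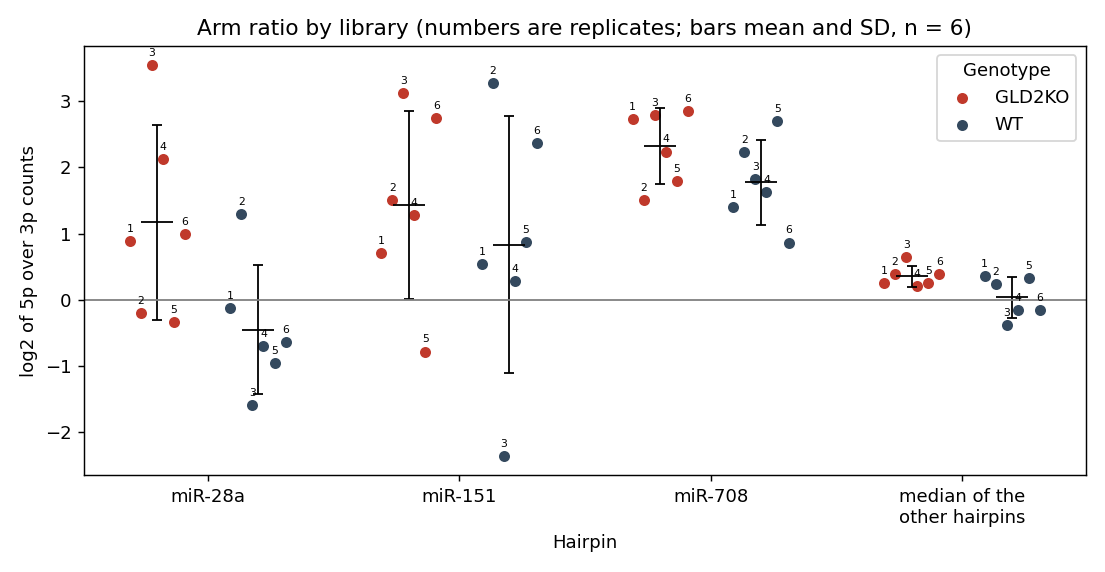
Log2 of 5p over 3p counts by library for the 3 hairpins and for the median of the other 164 hairpins, GLD2KO left of WT; numbers are replicates, bars are the mean and SD (n = 6). The miR-708 points all lie above 0, those of miR-28a and miR-151 fall on both sides of it, and replicate 3 is highest of the GLD2KO and lowest of the WT points for miR-28a and for the other hairpins' median.

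Whether the 2 arms of a hairpin rose and fell together across libraries was tested for the 3 hairpins on log2 CPM. For miR-28a Pearson's r was 0.01 (two-sided permutation p = 0.980, adjusted p = 0.980) and Spearman's rho -0.03 (permutation p = 0.938, adjusted p = 0.938). For miR-151 r was -0.16 (permutation p = 0.625, adjusted p = 0.938) and rho -0.15 (permutation p = 0.649, adjusted p = 0.938). The arms of miR-708 had an r of 0.59 (permutation p = 0.0486, adjusted p = 0.146) and a rho of 0.23 (permutation p = 0.470, adjusted p = 0.938). Leaving out the 2 libraries farthest from the 5p arm's median gave r of 0.27 for miR-28a, 0.05 for miR-151 and 0.27 for miR-708. For miR-708 these were GLD2KO replicate 1 and WT replicate 5. They were left out together, so the part of each was not told apart. With library totals in place of TMM factors the rho of miR-708 was 0.66 (permutation p = 0.0230, adjusted p = 0.0690). Within GLD2KO the r of miR-708 was 0.80 (exact permutation p = 0.0514) and within WT -0.20 (exact permutation p = 0.729). None of the 3 relations passed the adjustment. The median r over 164 hairpins with both arms tested was 0.08, and 70 of them lay below 0; these share libraries and are not independent.

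All 15 pairs of members were compared as well, after the values were seen. The 3 pairs of 3p arms had r of 0.54 to 0.68 and rho of 0.66 to 0.81, the 3 pairs of 5p arms r of 0.01 to 0.68, and the 6 pairs of a 5p with a 3p arm of another hairpin r of -0.19 to 0.27. Adjusted over 15 pairs, 0 passed by Pearson's r and 2 by Spearman's rho. These were miR-28a-3p with miR-708-3p (r = 0.68, permutation p = 0.0140, adjusted p = 0.105; rho = 0.81, permutation p = 0.00229, adjusted p = 0.0343) and miR-151-3p with miR-708-3p (r = 0.62, permutation p = 0.0335, adjusted p = 0.167; rho = 0.76, permutation p = 0.00595, adjusted p = 0.0446). Without the 2 libraries farthest from the median, r was 0.87 for the first pair (permutation p = 0.00110, adjusted p = 0.0165) and 0.38 for the second (permutation p = 0.283, adjusted p = 0.744). With library totals in place of TMM factors both rho values lost the call, at adjusted permutation p values of 0.179 and 0.211. The first pair had an r of 0.83 within GLD2KO (exact permutation p = 0.0625) and of 0.43 within WT (exact permutation p = 0.392). The second had 0.67 (exact permutation p = 0.157) and 0.61 (exact permutation p = 0.192). The difference between same-side pairs and the arms of 1 hairpin was not tested. How often pairs of unrelated miRNAs reach such values was not counted, so the 2 calls cannot be read as a trait of this family.

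The pair of 5p arms with the highest r was miR-28a-5p with miR-151-5p, at r = 0.68 (permutation p = 0.0133, adjusted p = 0.105) and rho = 0.55 (permutation p = 0.0662, adjusted p = 0.248). It fell to 0.24 without GLD2KO replicate 3 and WT replicate 3, the libraries at both ends of the range, and was 0.35 within GLD2KO and 0.76 within WT. How reads that match more than 1 miRNA were counted is not given in the sources used here, so arms of like sequence are uncertain as separate values. No other row of the table held the same 12 counts as any member.

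**Figure D4:**
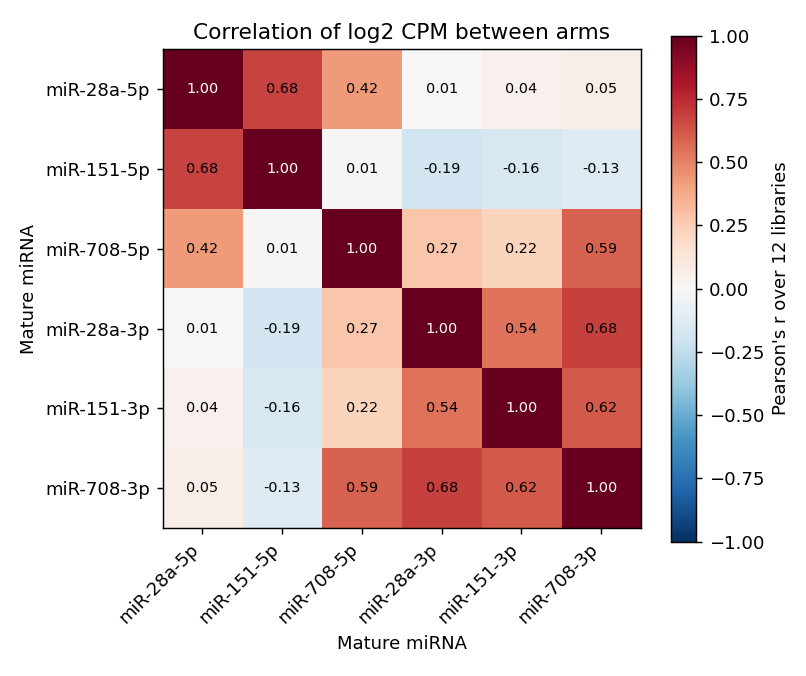
Pearson's r of log2 CPM between the 6 arms over 12 libraries, with 5p arms listed before 3p arms. The block of 3p arms holds r of 0.54 to 0.68, while the arms of 1 hairpin have 0.01 for miR-28a, -0.16 for miR-151 and 0.59 for miR-708. Pairs of unrelated miRNAs are not shown for comparison.

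The miRNAs whose levels followed each member most closely, among 221 from other hairpins with a mean of at least 100 CPM, are named as a description over the 12 libraries. For miR-28a-5p they were miR-495-3p (r = 0.83), the oligodendrocyte miRNA miR-219a-2-3p (r = 0.77) and miR-31-5p (r = 0.76). For miR-28a-3p they were miR-187-3p (r = 0.77), miR-380-3p (r = 0.72) and miR-138-2-3p (r = 0.69). For miR-151-5p they were miR-365-3p (r = 0.73), let-7b-3p (r = 0.71) and miR-222-3p (r = 0.71), each lowest in WT replicate 3 as miR-151-5p was. For miR-151-3p they were miR-124-5p, the lesser arm of the neuronal miR-124 (r = 0.81), miR-323-3p (r = 0.79) and miR-99b-5p (r = 0.78), each lowest in GLD2KO replicate 6. The nearest to miR-708-5p were miR-22-3p (r = 0.87), miR-193a-3p (r = 0.79) and miR-1839-5p (r = 0.76), and miR-22-3p stood at 5871 CPM in GLD2KO replicate 1 against at most 1452 CPM elsewhere. The nearest to miR-708-3p were miR-135b-5p (r = 0.84), miR-376c-3p (r = 0.79) and miR-136-3p (r = 0.78), each highest in GLD2KO replicate 1 and lowest in GLD2KO replicate 6. No miRNA was named for both arms of a hairpin.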

How the data were processed

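Counts per mature miRNA were deposited as whole numbers without normalization by the authors, per the file headers 1 column for each of 12 libraries. Trimmomatic 0.32, cutadapt 1.3 and the build GRCm38 appear in the submitters' processing notes. Which aligner, counter and miRNA annotation were used is not given in the sources used here. Per the labels' protocols, a gel-cut small RNA fraction was sequenced, and the sources differ on its lower size bound. Separate mice are described, with no batch or day. One row naming no miRNA held 0 counts and was left out. The genotype test was edgeR 4.0.16 under R 4.3.3 (TMM, filterByExpr, glmQLFit, glmQLFTest), over 521 miRNAs with 99.96% of counts. A prior count of 2 entered log2 CPM. Arm ratios used log2 of counts plus 0.5 in limma 3.58.1, where each arm averaged 10 counts or more. P values were adjusted by Benjamini-Hochberg over all miRNAs or hairpins, at 0.05. Both fits were tested on simulated data. Correlations used 100000 two-sided permutations, or all 720 pairings for 6 libraries. Named miRNAs were the members and, for each, the 3 others with the highest r. Of 1908 names 1864 matched a GENCODE hairpin. Members and lists were chosen with earlier results of these data known. Replicate numbers showed no clear pairing of the libraries: correlations of same-numbered deviations ran from -0.23 to 0.24, which cannot exclude a weak pairing. Alternatives were DESeq2 1.42.0, limma-voom, other scalings, filters and pseudocounts, a replicate block and leaving out each library.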

Additional observations from a re-analysis of the deposited data

Results flagged for a closer look

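The miR-708-5p level of GLD2KO replicate 1 was 2421 CPM, and the remaining 5 GLD2KO libraries ranged from 424 to 999 CPM, a gap of 0.71 of the group's range. It was the 1 library found far from the rest among 20 groups of 6 checked (the 6 arms, the 3 arm ratios and the summed level, in each genotype), where chance gives about 1 in 20, or 1.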

How the results depend on the processing

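Over 21 alternatives (9 other settings and 12 left-out libraries) 0 of the 6 members passed the test of genotype, and over 18 alternatives 0 hairpins passed that of the arm ratio. Over all miRNAs the count was 0 in edgeR, with 25 of 521 at an unadjusted p under 0.05; it was also 0 in DESeq2 (45 unadjusted) and limma-voom (23), and 0 without each library in turn, but 7 of 1325 with no low-count filter, none of them a member. With the replicate block 0 were called, and the log2 fold changes were 1.11 for miR-28a-5p and -0.03 for miR-708-3p. The block cannot move the arm differences, as both genotypes hold the same replicate numbers. Use of limma-voom also turned miR-708-3p, to -0.04. Without each library in turn the log2 fold change ran from 0.73 to 1.36 for miR-28a-5p, -0.60 to 0.01 for miR-28a-3p, 0.25 to 0.84 for miR-151-5p, 0.15 to 0.52 for miR-151-3p, 0.19 to 0.92 for miR-708-5p and -0.10 to 0.36 for miR-708-3p. The arm ratio difference ran from 1.15 to 1.97 for miR-28a, -0.04 to 1.09 for miR-151 and 0.36 to 0.73 for miR-708. The r between the arms of miR-28a turned to -0.23 within GLD2KO. That of miR-151 turned to 0.0094 with library totals, 0.046 without the 2 farthest libraries and 0.043 within GLD2KO, and that of miR-708 to -0.20 within WT. Between miR-151-5p and miR-708-5p, r turned from 0.01 to -0.034 without the 2 farthest libraries, -0.082 within WT and -0.16 within GLD2KO. The cause was not tested. The mean share of the family was 0.162% of counts, 0.150 to 0.171% without each library in turn, and 0.364% of counts outside the 10 most abundant miRNAs, where the total is smaller. Wide intervals limit what 6 mice a genotype show: that of miR-28a-5p spans -0.16 to 2.07.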

Other observations

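The mouse table also lists miR-28b and miR-28c, and both had few counts in these libraries. The sequence of mmu-miR-28b (chr8:73016523-73016543, plus strand, RefSeq, GRCm38.p6) was identical to miR-28a-5p at 19 of 21 aligned bases, shifted by 1 base, and bases 2 to 8 are in capitals.
mmu-miR-28b: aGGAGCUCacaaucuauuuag
Its seed, GGAGCUC, therefore differs from the AGGAGCU of miR-28a-5p. It had 8 counts in all over 6 GLD2KO libraries and 5 over 6 WT libraries, with 2 GLD2KO and 4 WT libraries at 0. For miR-28c, from an intron of Samd12 (chromosome 15, 53614205 to 53614279, GRCm38), there were 18 counts in GLD2KO and 16 in WT. Neither had enough counts to test.

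Among the miRNAs matched to a RefSeq sequence, which miR-151 was not, the bases AGGAGCU also occur outside the seed of miR-339-5p and miR-7080-5p, both of which were tested. The level of miR-339-5p was 108 CPM in GLD2KO and 99.6 CPM in WT, a log2 fold change of 0.12, equal to the median of all tested miRNAs. For miR-7080-5p it was 4.61 CPM in GLD2KO and 6.73 CPM in WT, a log2 fold change of -0.53, and neither passed the edgeR test.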
